A study of Mus musculus with 33 samples.

Results

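The hepatic and yolk sac protein genes examined here were 10 genes chosen by name out of 22367 protein-coding genes, namely Afp, Alb, Ttr, Apoa1, Apoa2, Apob, Rbp4, Trf, Fgb and Serpina1a. Gene starts, the outermost 5′ end of each gene, were taken from GENCODE on the mm9 genome. A gene was counted as carrying H3K4me3 when a deposited domain lay within 2 kb of its start, and H3K27me3 or H3K9me3 when a domain lay within 5 kb. Oct4, Sox2 and Nanog were counted when a peak summit lay within 20 kb of the gene body, and Uhrf1 when a 10 kb enriched window overlapped the gene body.

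ChIP-seq had been performed in mouse embryonic stem cells (mESC), E14 as WT and a Uhrf1 KO line, both obtained from the same other laboratory. It had also been performed in the embryoid bodies (EBs) started from them as hanging drops and examined after 1, 2 or 3 weeks of differentiation. EBs are aggregates in which stem cells differentiate into a mixture of lineages, and the mESC were kept undifferentiated with leukemia inhibitory factor. Of 33 samples, 17 were WT and 16 Uhrf1 KO; 25 had a list of regions, and the 8 input samples were not used here. H3K4me3 and H3K27me3 were mapped at all 4 stages in both genotypes, H3K9me3, Oct4, Sox2 and Nanog in mESC of both genotypes, and Uhrf1 in WT mESC. Each group was 1 library and the Uhrf1 KO was 1 cell line, so there was no replicate spread and no test. A difference between genotypes cannot be told apart from one between lines or libraries. In these bulk samples, fewer cells with a mark and less of the mark per cell cannot be told apart either.

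Hepatocytes and the visceral endoderm of the yolk sac secrete many of the same carrier proteins and lipoproteins, which the yolk sac supplies to the embryo before the liver has formed. Their genes are switched on by endoderm and liver transcription factors such as the HNF4 and FOXA proteins, which bind promoters and enhancers close to the genes. H3K4me3 marks the starts of active or poised genes, H3K27me3 is the mark laid down by Polycomb complexes on silent developmental genes, H3K9me3 marks heterochromatin, and a start with both H3K4me3 and H3K27me3 is called bivalent. Uhrf1 is a chromatin protein best known for bringing the DNA methyltransferase Dnmt1 to replicating DNA.

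The 18 histone lists held between 722 and 39898 domains, and both ends of that range bear on the genes described here: the fewest were for H3K27me3 in Uhrf1 KO mESC, with a median signal of 0.914 reads per bin, and the most for H3K4me3 in WT EBs at week 2. The starts of 5 of 5 genes active in every cell (Actb, Gapdh, Tbp, Hprt, Ppia) carried H3K4me3 in all 8 H3K4me3 lists. Of 6 pluripotency genes, 5 carried it in mESC of both genotypes and at weeks 2 and 3, with 4 in WT and 1 in Uhrf1 KO at week 1. Of 9 endoderm genes, 4 carried it in WT and 3 in Uhrf1 KO mESC, and 6 to 8 in the EB lists (all 9 are also in the pathway lists described further on), so the starts of genes that mark the source tissue were marked more often in EBs than in mESC. The Uhrf1 start itself carried H3K4me3 in 8 of 8 lists, which does not check the deletion.

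The starts of the secreted protein genes were poor in CpG dinucleotides. The observed over expected CpG ratio within 500 bp of the start ranged from 0.144 at Serpina1a to 0.650 at Rbp4, with a median of 0.331, whereas the median of all genes was 0.549. Of the 10 starts, 9 lay below 0.4, as did 8965 of all 22367 starts (40.1%); Afp and Trf, at 0.397 and 0.399, lay just under that value. Rbp4 had a further RefSeq start 510 bp inside the gene with 28 CpG dinucleotides in the 250 bases upstream, against a median of 6 over 32851 RefSeq promoters. The remaining RefSeq starts had between 1 and 7.

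**Figure D1:**
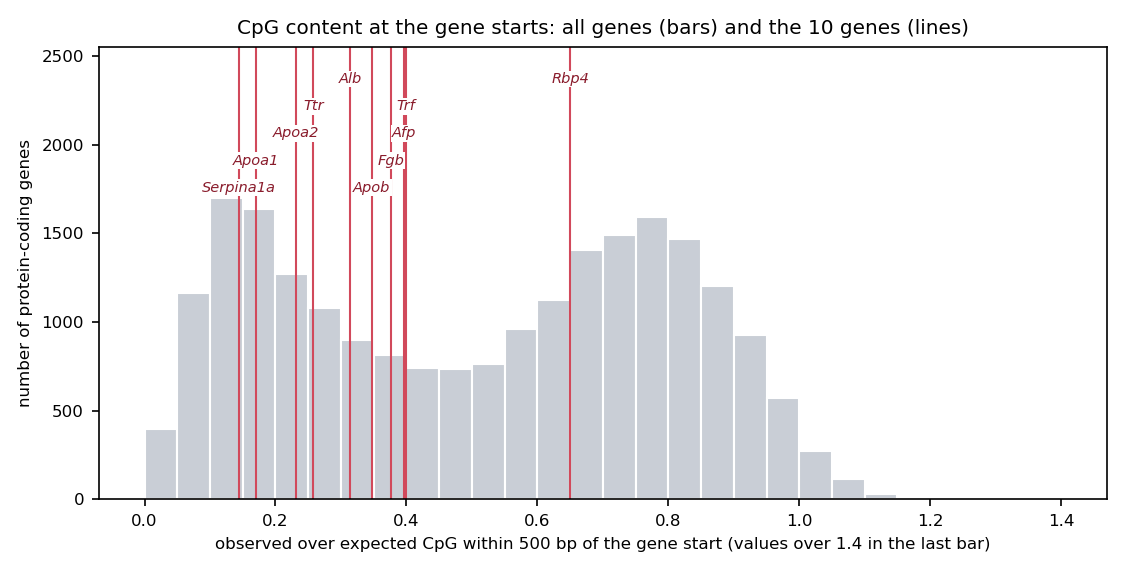
CpG content at gene starts. The x axis is the observed over expected CpG ratio within 500 bp of the start and the y axis the number of protein-coding genes. Grey bars are all 22367 genes and the red lines the 10 genes, of which 9 fell in the CpG-poor group on the left and Rbp4, at 0.650, in the CpG-rich group on the right.

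RefSeq promoter sequences (table build GRCm38.p6) were matched exactly to the mm9 genome for 8 of the 10 genes and were not used for Ttr and Trf. Short matches were searched in the 250 bases upstream of the start on both strands. TGTTTNC, a forkhead sequence of the kind bound by FOXA proteins, lay in 8 of the 10 RefSeq promoters of these 8 genes, 1 promoter for each gene, and in 17.8% of all RefSeq promoters. The further starts of Apoa2, 3490 bp upstream, and Rbp4 had no match. TATAA lay in 4 of the 10, those of Afp, Apoa2 and Apob and the further start of Rbp4, and in 22.8% of all. These are matches of letters, not shown to be bound. No share was computed among promoters of like base composition, and most of the starts here are CpG-poor.

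The promoters of Afp, Alb and Serpina1a are printed because these 3 CpG-poor genes lay in long H3K9me3 domains in WT mESC. Those of Fgb and Apob are printed because the presence or extent of their H3K4me3 domains differed between the genotypes in EBs. Each runs 5′ to 3′ on the strand of the gene, from RefSeq on the mm9 build, with each match to the forkhead sequence in capitals, as given above or as the reverse complement. Afp (plus strand) is chr5:90919490-90919739, Alb (plus) is chr5:90889646-90889895, Fgb (minus) is chr3:82853786-82854035, Serpina1a (minus) is chr12:105101830-105102079 and Apob (plus) is chr12:7984233-7984453. All 5 lie outside the exons of their genes.
Afp: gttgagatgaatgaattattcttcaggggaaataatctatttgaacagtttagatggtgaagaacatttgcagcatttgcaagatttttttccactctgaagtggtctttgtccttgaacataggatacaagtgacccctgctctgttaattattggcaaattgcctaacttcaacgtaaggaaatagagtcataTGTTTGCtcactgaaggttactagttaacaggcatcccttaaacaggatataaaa
Alb: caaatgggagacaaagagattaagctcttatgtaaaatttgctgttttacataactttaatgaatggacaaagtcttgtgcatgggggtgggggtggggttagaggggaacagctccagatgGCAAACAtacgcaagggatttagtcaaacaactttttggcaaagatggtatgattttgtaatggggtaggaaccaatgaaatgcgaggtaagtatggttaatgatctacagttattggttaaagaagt
Fgb: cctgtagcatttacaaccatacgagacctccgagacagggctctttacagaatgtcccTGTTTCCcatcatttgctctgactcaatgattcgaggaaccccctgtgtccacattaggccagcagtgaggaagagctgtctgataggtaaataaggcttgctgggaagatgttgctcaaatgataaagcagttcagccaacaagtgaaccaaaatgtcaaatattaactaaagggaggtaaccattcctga
Serpina1a: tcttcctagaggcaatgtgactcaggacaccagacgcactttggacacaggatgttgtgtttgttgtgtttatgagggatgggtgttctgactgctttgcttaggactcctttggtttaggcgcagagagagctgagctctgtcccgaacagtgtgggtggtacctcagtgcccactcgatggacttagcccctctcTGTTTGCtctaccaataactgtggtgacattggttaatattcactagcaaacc
Apob: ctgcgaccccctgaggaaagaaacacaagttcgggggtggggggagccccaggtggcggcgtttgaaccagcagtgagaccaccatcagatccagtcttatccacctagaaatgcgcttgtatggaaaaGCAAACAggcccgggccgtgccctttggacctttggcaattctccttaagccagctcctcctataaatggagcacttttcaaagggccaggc
The Serpina1a RefSeq start lay 2308 bp inside the outermost GENCODE start that was used for the domains, whereas the other printed starts lay within 60 bp of it.

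H3K4me3 was found at more of the secreted protein genes in EBs than in mESC, and in WT more often over the start itself. The mESC lists had bins of 1300 bp and the EB lists bins of 350 to 400 bp. Stage therefore cannot be told apart from bin size, the part of which was not tested. In WT, 4 of the 10 genes carried H3K4me3 within 2 kb in mESC (Apoa1, Apoa2, Rbp4, Fgb), 6 at week 1, 8 at week 2 and 7 at week 3. In Uhrf1 KO the counts were 2 in mESC (Apoa1, Apoa2) and 6 at each of weeks 1, 2 and 3. Over all protein-coding genes the same rule was met by 63.2%, 62.1%, 65.7% and 66.2% in WT and by 57.0%, 57.0%, 64.5% and 65.8% in Uhrf1 KO, in the order mESC, week 1, week 2, week 3. The secreted protein genes therefore lay below the share of all genes in mESC of both genotypes and close to it or above in EBs. Among all genes with CpG-poor starts the shares were 21.8%, 18.3%, 26.5% and 25.7% in WT and 17.7%, 15.2%, 24.1% and 24.9% in Uhrf1 KO, a comparison chosen after seeing the data. Without the CpG-rich Rbp4, 3, 5, 7 and 6 of 9 secreted protein genes were marked in WT and 2, 5, 5 and 5 of 9 in Uhrf1 KO. This is above the CpG-poor share in the EB lists, whereas in mESC the counts lay close to it. The 3 in WT mESC were Apoa1, Apoa2 and Fgb, and no domain covered the start of any of them. The domains near Apoa2 and Fgb there covered the starts of neighbouring genes. Nearest to the 2 kb limit were Afp in Uhrf1 KO at week 3, whose domain began 1861 bp from the start, and Fgb in Uhrf1 KO at week 2, whose nearest domain ended 2476 bp away.

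In EBs the genotypes differed more in how many starts a domain covered than in how many genes had one within 2 kb. Whether the start itself was covered was a measure chosen after seeing the data. A domain covered the start itself at 1 of 10 genes in WT mESC (Rbp4), 4 at week 1 (Ttr, Apob, Rbp4, Fgb), 8 at week 2 (all but Alb and Serpina1a) and 5 at week 3 (Ttr, Apob, Rbp4, Trf, Fgb). In Uhrf1 KO it covered the start at 1 gene in mESC (Apoa2), 2 at weeks 1 and 2 (Ttr and Rbp4) and 3 at week 3 (Ttr, Apoa2, Rbp4). Over all genes a domain covered the start at 61.0%, 58.9%, 60.6% and 62.1% in WT and at 54.7%, 49.2%, 58.6% and 61.4% in Uhrf1 KO. At week 2 the start was covered in WT only at 6 of the 10 genes (Afp, Apoa1, Apoa2, Apob, Trf, Fgb) and in Uhrf1 KO only at 0, against 4.52% and 2.50% of all genes. Of these genes, Apob, Trf and Fgb had no Uhrf1 KO domain within 2 kb that week. Afp and Apoa1 had one that began downstream of the start, and that near Apoa2 lay over the start of the neighbouring gene Tomm40l. Most of these 10 starts are CpG-poor, and no share among CpG-poor starts was computed for this measure. The WT list of that week held 39898 domains over 206 Mb and the Uhrf1 KO list 32702 domains over 154 Mb, and the part of list size in the difference was not tested. At the other stages, the starts covered in WT only were 1 in mESC (7.73% of all genes), 2 at week 1 (10.7%) and 3 at week 3 (2.80%), and in Uhrf1 KO only 1 in mESC (1.44%), 0 at week 1 (1.04%) and 1 at week 3 (2.14%).

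**Figure D2:**
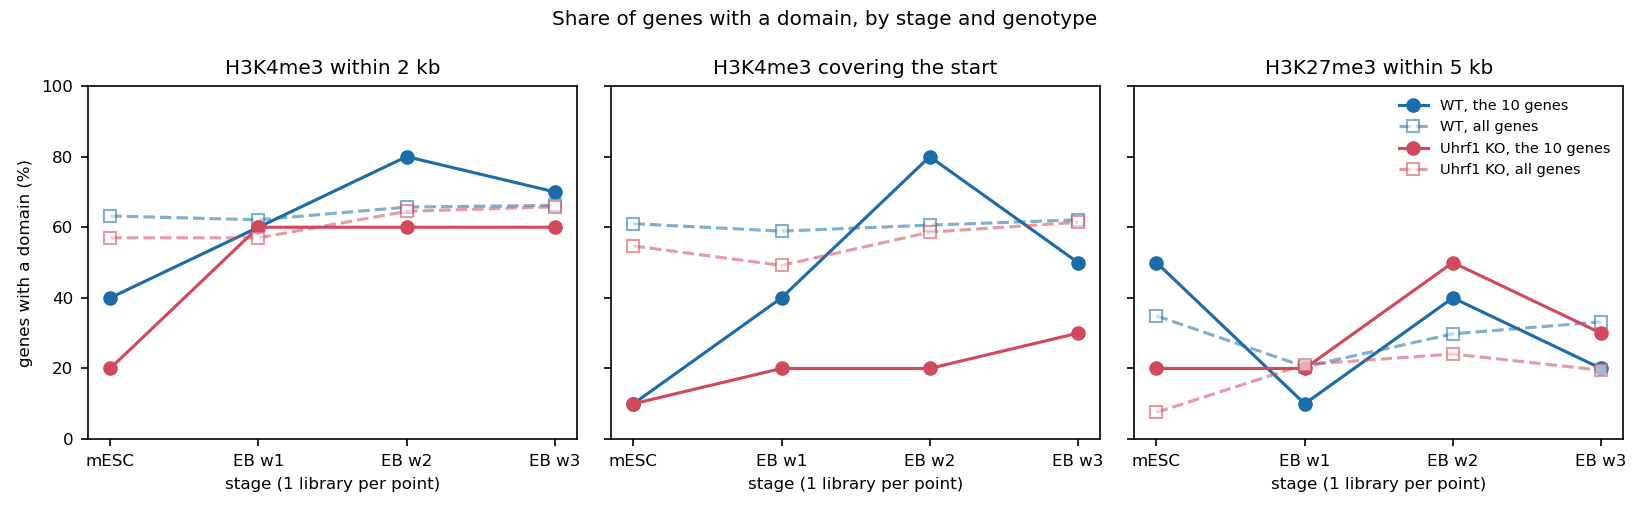
Share of genes with a domain by stage. The x axis is the stage and the y axis the percentage of genes; filled circles are the 10 secreted protein genes and open squares all 22367 genes, in WT (blue) and Uhrf1 KO (red), with 1 library per point. The middle panel shows the start itself covered at 8 of 10 genes in WT and 2 of 10 in Uhrf1 KO at week 2.

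Within 2 kb, the state at week 1 was H3K4me3 in WT only at Apoa1 and Fgb (6.23% of all genes were WT only) and in Uhrf1 KO only at Afp and Trf (1.18%). At week 2 Apob, Trf and Fgb were marked in WT only (3.51%) and Alb in Uhrf1 KO only (2.27%). At week 3 Apob and Trf were marked in WT only (2.47%) and Afp in Uhrf1 KO only (2.04%). In mESC Rbp4 and Fgb were marked in WT only (7.60%) and no member in Uhrf1 KO only (1.38%). Apob, Trf and Fgb were thus each marked in WT and not in Uhrf1 KO at 2 or 3 stages, and Afp the other way round at 2 stages, as was Trf at 1 stage. The Uhrf1 KO domains behind the calls at Afp, Alb and Trf did not cover the start, and each ranked low in its list by signal or by score.

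**Figure D3:**
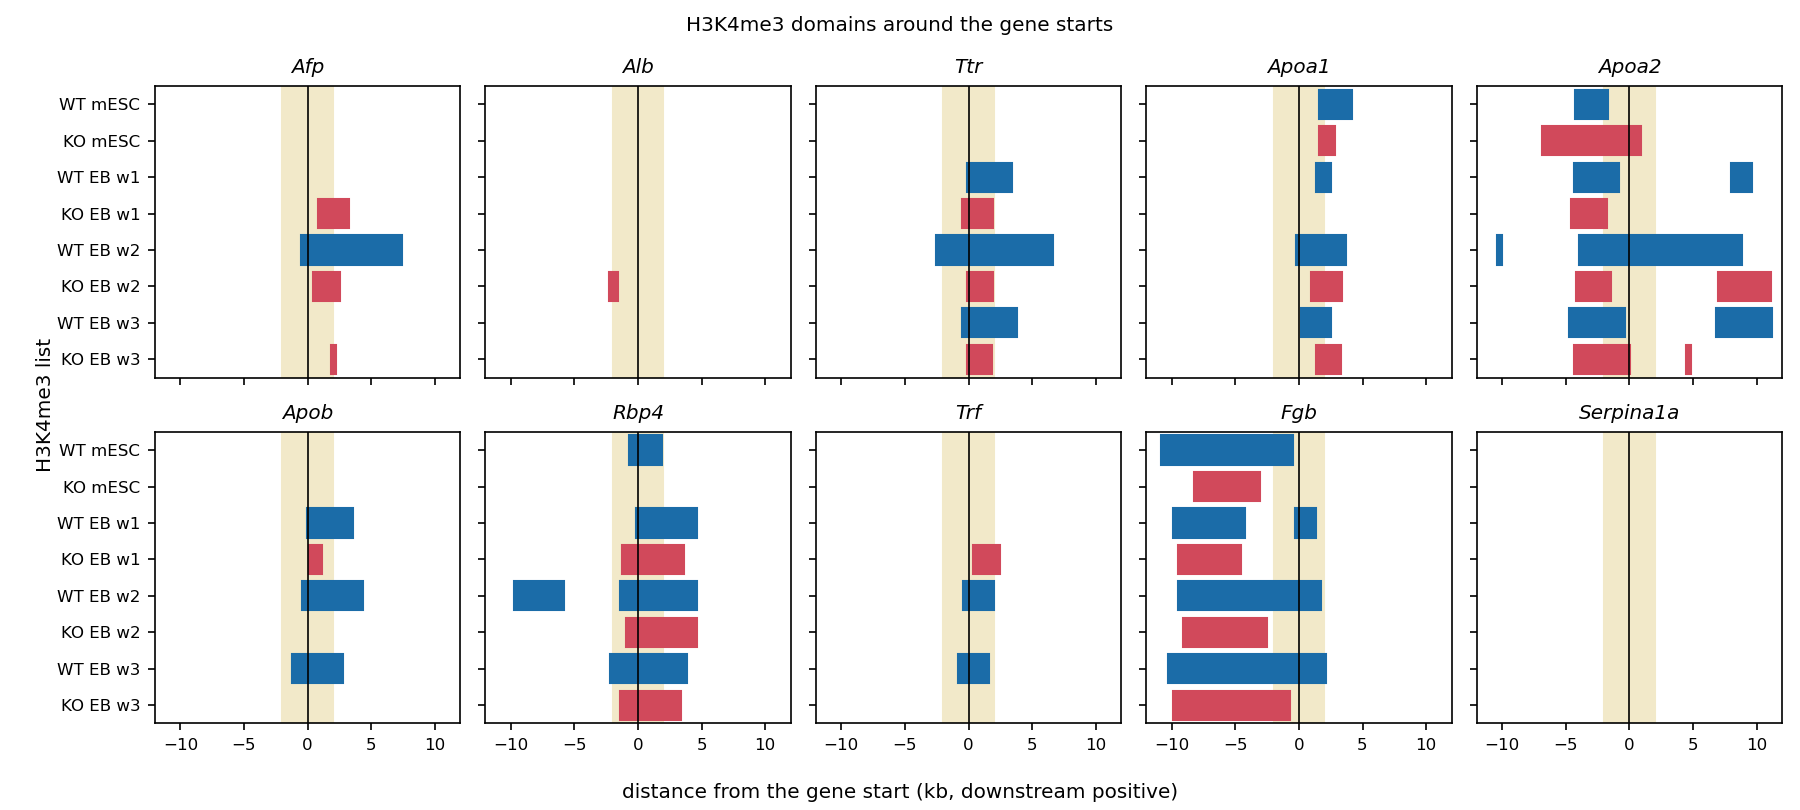
H3K4me3 domains around the starts. Each panel is a gene, the x axis is the distance from its start in kb (downstream positive, cut at 12 kb either side), the rows are the 8 lists, and the bars are domains in WT (blue) and Uhrf1 KO (red); the shaded band is 2 kb either side. At Afp, Apoa1, Apob, Trf and Fgb the WT week 2 bar crosses the start and the Uhrf1 KO bar of that week lies beside it or is missing.

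The serum carriers came first by role. Alb, albumin, is the main carrier of the adult plasma, and Afp, alpha-fetoprotein, its fetal counterpart made first by the visceral endoderm. Both lie on the plus strand of chromosome 5, Alb at 90889915 to 90905629 and Afp at 90919740 to 90937933, with 29825 bp between their starts and the start of Afm, afamin, 28218 bp downstream of that of Afp. At Afp, H3K4me3 in WT was found at week 2 alone, as a domain of 8000 bp from 539 bp upstream to 7460 bp downstream of the start, with 7.14 reads per bin against a list median of 10.2. In Uhrf1 KO, Afp had shorter domains that began inside the gene at weeks 1, 2 and 3: 2450 bp long from 811 bp downstream, 2100 bp from 461 bp and 400 bp from 1861 bp. The week 1 domain was above 2.17% of its list in reads per bin and 42.5% in score, a deposited value that is higher for domains of more bins. The week 3 domain was above 54% in reads per bin and 1.03% in score. The nearest domain was 97161 bp from the Afp start in WT mESC, 94561 bp in Uhrf1 KO mESC and 97061 bp in WT at week 1, and at week 3 in WT the nearest, 27861 bp downstream, covered the start of Afm instead. Alb had H3K4me3 in 1 of 8 lists, Uhrf1 KO at week 2, as a 700 bp domain that ended 1565 bp upstream of the start. That domain was above 45.2% of its list in reads per bin and 8.8% in score. Edges are resolved only to the bin of the list, which was 350 to 400 bp in the EB lists and 1300 bp in the mESC lists.

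Ttr, transthyretin, carries thyroid hormone and the retinol carrier Rbp4 in plasma, and lies on the plus strand of chromosome 18 at 20823751 to 20832825. In mESC its nearest H3K4me3 domain was 62751 bp away in WT and 49050 bp in Uhrf1 KO, whereas a domain lay over its start in all 6 EB lists. The WT domains were 3600, 9200 and 4400 bp long at weeks 1, 2 and 3 and the Uhrf1 KO domains 2450, 2100 and 2000 bp. The WT domain was thus the longer at each of 3 weeks, while the median domain was 4800, 2800 and 3800 bp in the WT lists and 3150, 2800 and 3600 bp in the Uhrf1 KO lists. Of the 10 genes, Ttr was the only one whose start was uncovered in mESC and covered at every week in both genotypes, and it had no H3K27me3 domain within 5 kb in any list.

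Rbp4, the plasma carrier of retinol, lies on the minus strand of chromosome 19 at 38191110 to 38199811. Its start was covered by H3K4me3 in 4 of 4 WT lists, by 2600 bp in mESC and 4800, 6000 and 6000 bp in weeks 1, 2 and 3. In Uhrf1 KO mESC the nearest domain was 26611 bp away, at O3far1, and in Uhrf1 KO EBs the start was covered by 4900, 5600 and 4800 bp. Rbp4 also had H3K27me3 over its start in 8 of 8 lists, with 5.06 to 10.2 reads per bin in 7 of them and 0.301 in Uhrf1 KO mESC, where the list median was 0.914. It was therefore bivalent in 7 of 8 combinations of genotype and stage and carried H3K27me3 alone in Uhrf1 KO mESC.

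Trf, transferrin, the iron carrier, lies on the minus strand of chromosome 9 at 103106331 to 103132774. Its nearest H3K4me3 domain was 24574 bp away in WT and 16774 bp in Uhrf1 KO mESC, 16374 bp in WT at week 1, and 16824 and 16774 bp in Uhrf1 KO at weeks 2 and 3. WT domains of 2400 bp covered its start at week 2 (from 426 bp upstream) and week 3 (from 826 bp upstream). In Uhrf1 KO a domain of 2100 bp began 374 bp downstream of the start at week 1, with 5.50 reads per bin, which is above 1.83% of the domains of that list. The mark was therefore found in different weeks in the 2 genotypes.

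The apolipoproteins package and transport lipids: Apoa1 and Apoa2 are the main proteins of high density lipoprotein, and Apob is the structural protein of chylomicrons and of very low and low density lipoprotein. Apob, on the plus strand of chromosome 12 at 7984454 to 8023641, has no coding neighbour within 100 kb, so its domains are shared with no other start. In mESC the nearest H3K4me3 domain was 226347 bp away in WT and 223747 bp in Uhrf1 KO. In WT EBs domains of 3600, 4800 and 4000 bp covered the start at weeks 1, 2 and 3. In Uhrf1 KO a domain of 1050 bp began 97 bp downstream at week 1, and at weeks 2 and 3 the nearest were 164597 and 216747 bp away. The start of Apob was therefore covered at every week in WT and at none in Uhrf1 KO, but the difference at week 1 is not resolved. There the WT domain began only 53 bp upstream, with a bin of 400 bp. The gap of 97 bp in Uhrf1 KO is smaller than the bin of 350 bp in that list.

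Apoa1 lies on the plus strand of chromosome 9 at 46036663 to 46038549, in a cluster with Apoc3 and Apoa4, whose starts are 7056 and 12116 bp downstream. In mESC of both genotypes a domain began 1538 bp downstream of its start, 2600 bp long in WT and 1300 bp in Uhrf1 KO. In WT EBs domains began 1338 bp downstream at week 1, 262 bp upstream at week 2 and 138 bp downstream at week 3. In Uhrf1 KO EBs the nearest was 30913 bp away at week 1, and domains began 938 and 1338 bp downstream at weeks 2 and 3. The start itself was covered in 1 list, WT at week 2, and the gap of 138 bp in WT at week 3 is smaller than the bin of 400 bp. Of the other domains that missed a start, those near Apoa2 in WT at week 3 (385 bp away, with a bin of 400 bp) and Fgb in WT mESC (476 bp away, with a bin of 1300 bp) also lay less than 1 bin from it. Some domains that covered a start reached less than 1 bin beyond it. In WT these were at Ttr, Apob, Rbp4 and Fgb at week 1 (150, 53, 189 and 275 bp), Apoa1 at week 2 (262 bp) and Rbp4 in mESC (689 bp). In Uhrf1 KO they were at Ttr at weeks 2 and 3 (150 bp each) and at Apoa2 at week 3 (15 bp) and in mESC (915 bp).

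Apoa2 lies on the plus strand of chromosome 1 at 173155185 to 173156510, with the start of Tomm40l, a mitochondrial import gene, 2540 bp upstream. A domain lay within 2 kb of its start in 8 of 8 lists, and in all 8 that domain also covered the start of Tomm40l. It reached over the Apoa2 start in WT at week 2, as 12800 bp ending 8815 bp downstream, in Uhrf1 KO mESC, ending 915 bp downstream, and in Uhrf1 KO at week 3, ending 15 bp downstream. In the other 5 lists it ended between 385 and 1785 bp upstream, so the state of Apoa2 there rests on a domain over its neighbour.

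Fgb, the beta chain of the clotting protein fibrinogen, lies on the minus strand of chromosome 3 at 82846169 to 82853725, with the start of the splicing gene Plrg1 5719 bp upstream and Fga and Fgg, the other fibrinogen chains, 23650 and 41944 bp downstream. In WT at week 1 a domain of 1600 bp of its own covered the Fgb start, while at weeks 2 and 3 domains of 11200 and 12400 bp covered the starts of both Fgb and Plrg1. In WT mESC a Plrg1 domain ended 476 bp upstream of Fgb. In Uhrf1 KO the Plrg1 domain ended 3076, 4576, 2476 and 676 bp upstream in mESC and at weeks 1, 2 and 3, so it counted at week 3 alone. The Plrg1 domain was present in all 8 lists, and the lists differed in whether it, or a domain beside it, extended to Fgb.

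Serpina1a encodes alpha-1-antitrypsin, a protease inhibitor, and lies on the minus strand of chromosome 12 at 105091799 to 105104137 among the near-identical copies Serpina1c, Serpina1d and Serpina1e. It had H3K4me3 in none of 8 lists, the nearest domain being between 96937 bp (WT at week 2) and 331337 bp (WT at week 1) from its start. The authors kept 1 alignment per read, so reads from this family may have been assigned to any copy, and the absence of a domain here is uncertain for that reason.

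H3K27me3 was found at 5 of 10 genes in WT mESC (Afp, Alb, Rbp4, Fgb, Serpina1a), 1 at week 1 (Rbp4), 4 at week 2 (Afp, Alb, Apob, Rbp4) and 2 at week 3 (Alb, Rbp4). In Uhrf1 KO it was found at 2 in mESC (Apoa2, Rbp4), 2 at week 1 (Apoa1, Rbp4), 5 at week 2 (Afp, Alb, Apob, Rbp4, Fgb) and 3 at week 3 (Afp, Alb, Rbp4). Over all genes the shares were 34.9%, 20.5%, 29.8% and 33.2% in WT and 7.57%, 21.1%, 24.1% and 19.5% in Uhrf1 KO. In mESC 4 of 10 genes had it in WT only (Afp, Alb, Fgb, Serpina1a), where 29.5% of all genes did. The Uhrf1 KO mESC list held 722 domains over 84.1 Mb, against 8161 over 960 Mb in WT, and the part of list size in that difference was not tested.

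At Alb and Afp, H3K27me3 lay in long domains that took in several neighbouring genes. In WT mESC 1 domain of 145800 bp, from 91739 bp upstream to 54060 bp downstream of the Afp start, covered the starts of Alb, Afp and Afm together. At week 1 no domain lay over any of these in WT and the Uhrf1 KO list had a domain of 12600 bp over Afm alone. At week 2 a WT domain of 97200 bp covered Alb and Afp and ended 1860 bp inside Afp, and in the H3K4me3 library of the same week the 8000 bp domain began 539 bp upstream of Afp. At week 3 the WT domain of 73800 bp ended 12540 bp upstream of Afp and so covered Alb only. In Uhrf1 KO domains of 99000 bp at week 2 and 106200 bp at week 3 covered Alb, Afp and Afm. At weeks 2 and 3 the right-hand edge thus lay no more than 1860 bp past the start of Afp in WT and past the start of Afm in Uhrf1 KO.

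At Rbp4 the H3K27me3 domain was 90000, 49000, 57600 and 59400 bp long in WT and 121500, 10800, 48600 and 72000 bp in Uhrf1 KO, in the order mESC, weeks 1, 2 and 3. It covered the start of Rbp4 each time and that of the photoreceptor gene Pde6c, 7460 bp upstream, in 6 of 8 lists. In WT mESC the Fgb start lay in a domain of 356400 bp with Fga, Fgg and 2 other genes, and in Uhrf1 KO at week 2 in 63000 bp with Fga and Fgg. At Apob it was covered at week 2 alone, by 423000 bp in WT and 111600 bp in Uhrf1 KO. Apoa1 in Uhrf1 KO at week 1 had a domain of 1800 bp beginning 1938 bp downstream, and Apoa2 in Uhrf1 KO mESC a domain that ended 4185 bp upstream. Ttr and Trf had none within 5 kb in any of 8 lists. The nearest domain just outside that limit ended 5985 bp upstream of Apoa2, in Uhrf1 KO at weeks 1 and 2.

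H3K9me3 in mESC was found at 4 of 10 genes in WT (Afp, Alb, Rbp4, Serpina1a) and 2 in Uhrf1 KO (Afp, Alb), against 29.7% and 40.1% of all genes. Rbp4 and Serpina1a had it in WT only, as did 7.46% of all genes. No member had it in Uhrf1 KO only, and the share of all genes that did was not computed. Over all genes the share with H3K9me3 was the higher in Uhrf1 KO. Afp and Alb lay with Afm in a WT domain of 142200 bp whose edges, 86339 bp upstream and 55860 bp downstream of Afp, were within 6 kb of those of the H3K27me3 domain there. In Uhrf1 KO they lay in a domain of 819000 bp that covered the starts of 17 coding genes. The median H3K9me3 domain was 37800 bp in WT and 140400 bp in Uhrf1 KO, so lengths are not comparable between the genotypes. Rbp4 lay near the end of a WT domain of 90000 bp that ended 2010 bp inside the gene, and Serpina1a within 59400 bp.

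**Figure D4:**
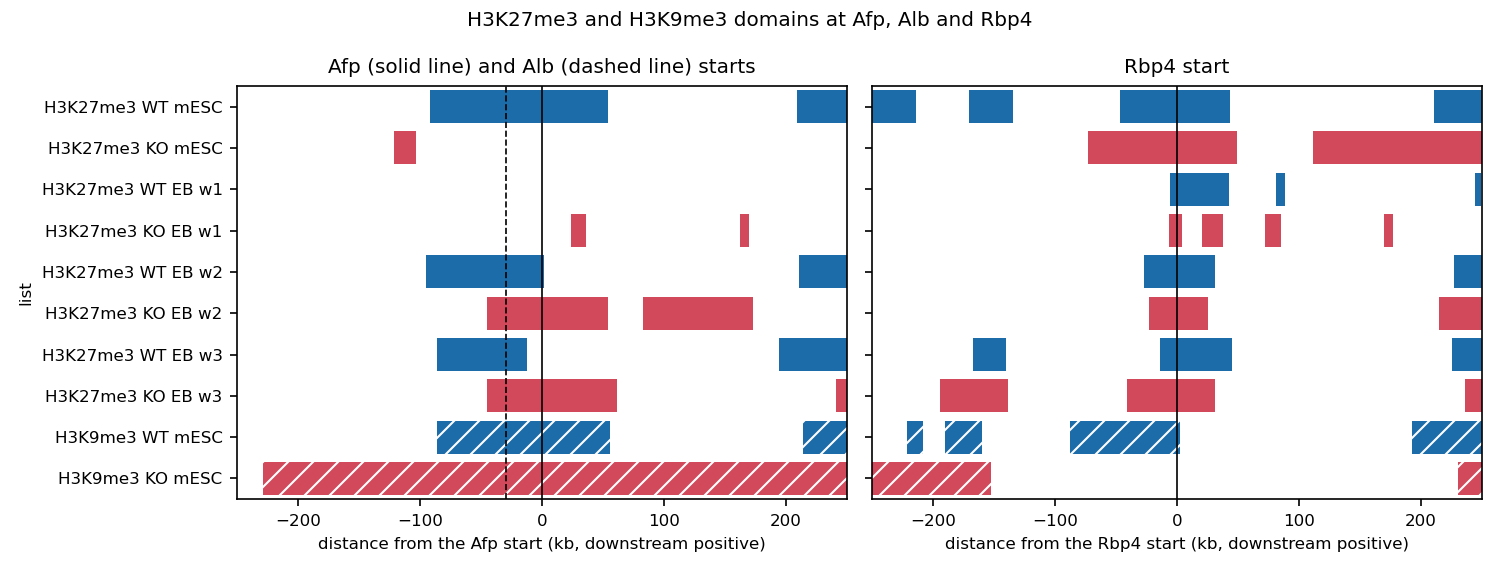
H3K27me3 (plain bars) and H3K9me3 (hatched bars) domains in WT (blue) and Uhrf1 KO (red). The x axis is the distance in kb from the start of Afp (left, with Alb as the dashed line) or Rbp4 (right), cut at 250 kb either side, and the rows are the 10 lists. At Afp and Alb the WT mESC H3K27me3 and H3K9me3 bars have nearly the same edges, and at Rbp4 an H3K27me3 bar crosses the start in all 8 lists.

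When both marks were read together, the bivalent genes were Rbp4 and Fgb in WT mESC, Rbp4 at week 1, Afp, Apob and Rbp4 at week 2 and Rbp4 at week 3. In Uhrf1 KO they were Apoa2 in mESC, Rbp4 at week 1, Afp, Alb and Rbp4 at week 2 and Afp and Rbp4 at week 3. Bivalent genes were thus 2, 1, 3 and 1 of 10 in WT and 1, 1, 3 and 2 of 10 in Uhrf1 KO, in the order mESC, weeks 1, 2 and 3, against 18.3%, 15.2%, 13.7% and 19.6% of all genes in WT and 4.29%, 10.7%, 13.4% and 11.3% in Uhrf1 KO. Neither mark was found at 3, 4, 1 and 2 of 10 genes in WT and at 7, 3, 2 and 3 of 10 in Uhrf1 KO, against 20.3%, 32.7%, 18.2% and 20.1% of all genes in WT and 39.8%, 32.6%, 24.8% and 26.0% in Uhrf1 KO. The 3 in WT mESC were Ttr, Apob and Trf, and Serpina1a had neither mark in any EB list. The classes in Uhrf1 KO mESC rest on the H3K27me3 list of 722 domains. The bivalent state of Alb at week 2 and Afp at week 3 in Uhrf1 KO rests on short H3K4me3 domains that did not cover the start. That of Fgb in WT mESC rests on a domain over Plrg1. The H3K27me3 domain at Apob in WT at week 2 was above 0.755% of its list in reads per bin and 85.9% in score.

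Summits of the pluripotency factors lay near none of these genes in WT mESC, and in Uhrf1 KO mESC Nanog summits lay near 4. In WT mESC none of the 10 genes had a summit of Oct4, Sox2 or Nanog within 20 kb of the gene body, where 30.1%, 18.8% and 7.51% of all genes had one. In Uhrf1 KO mESC no gene had an Oct4 summit (1.10% of all genes), 1 had a Sox2 summit (57.7%) and 4 had a Nanog summit (27.4%). The Sox2 summit lay 19045 bp from Rbp4 with 13 reads, and the Nanog summits lay 13274 bp from Apoa1 (10 reads), 3301 bp from Apoa2 (13 reads), 18951 bp from Trf (13 reads) and 11593 bp from Fgb (6 reads), against list medians of 18 reads for Sox2 and 12 for Nanog. The Uhrf1 KO lists held 576 Oct4, 20755 Sox2 and 10632 Nanog summits and the WT lists 12898, 5190 and 2390. The Sox2 share at these genes was thus below that of all genes in both genotypes. For Nanog, the counts of 0 of 10 in WT and 4 of 10 in Uhrf1 KO both lay near the share of all genes for a set of this size. In Uhrf1 KO the Nanog count was 1 of 10 genes within 5 kb and 2 of 10 with only summits above the median height. No share of all genes was computed at those settings. The Nanog summit near Apoa2 lay inside Tomm40l and that near Fgb inside Fga. That near Apoa1 lay just past the end of Apoa4, and that near Trf on the far side of Srprb. No gene lay under a Uhrf1 window, where 9.84% of all genes did, and the nearest window lay 5864 bp from Serpina1a.

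**Figure D5:**
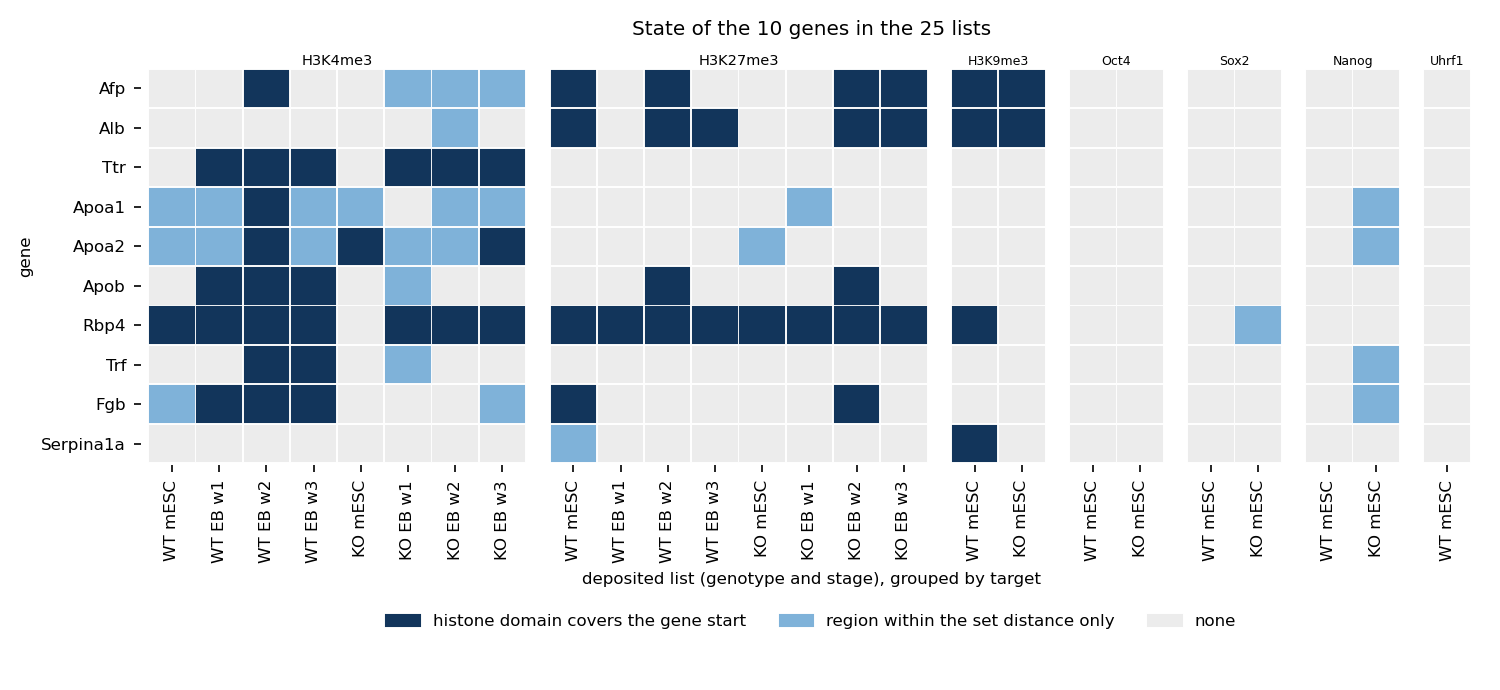
State of the 10 genes in the 25 lists. Rows are genes and columns are the lists by target, genotype and stage (w1 to w3 are EB weeks); dark cells are histone domains that cover the gene start, light blue cells regions within the set distance only, and grey cells none. H3K4me3 fills in from mESC to WT week 2, Rbp4 is dark in 8 of 8 H3K27me3 lists, and the factor and Uhrf1 columns in WT are empty.

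Genes of the same pathway were read from 3 further lists. Of 23 other plasma protein genes, H3K4me3 was found in WT at 6 in mESC and 5, 9 and 11 at weeks 1, 2 and 3, and in Uhrf1 KO at 5, 4, 6 and 7. Those that differed most were Afm and Fga, marked at weeks 2 and 3 in WT and in no Uhrf1 KO list, F2 (prothrombin), marked in WT and not Uhrf1 KO in mESC and at week 2, and Apoc1, likewise at 1 stage (week 1), with which C3 and Gc tied (week 3). H3K27me3 was found at 7, 2, 5 and 5 in WT and 4, 8, 6 and 4 in Uhrf1 KO. Afm and Fga neighbour Afp and Fgb, so these states are not independent of theirs.

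Of 9 genes of uptake and lipoprotein assembly, 5, 6, 6 and 7 carried H3K4me3 in both genotypes at the 4 stages. Amn and Cubn, which together form the endocytic receptor of the visceral endoderm, differed at 1 stage each, Amn at week 1 in WT only and Cubn at week 1 in Uhrf1 KO only. Of 11 endoderm and liver transcription factor genes, 9, 10, 11 and 11 carried it in WT and 7, 9, 11 and 11 in Uhrf1 KO. Cebpa was marked in WT only at week 1, and Foxa1 and Foxa2 in mESC.

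The genes most like each member were those with the same state in most of the 25 lists, a count with no test. Ttr and Apoa2 each matched Scarb1 in 23 lists, Rbp4 matched Foxa1 and Gata4 in 23, Apoa1 matched Apoc1 in 22, and Trf matched Apoa4 in 22 and Ahsg in 21. Apob matched Fga in 20 and Ahsg in 19, Fgb matched F2 and Fga in 20, Alb matched Fgg in 20 and Afm in 18, and Afp matched Afm in 18 and Fga in 16. Ties were taken in alphabetical order, and the count of Fga at Afp was shared by 9 genes, that of Afm at Alb by 5 and that of Ahsg at Apob by 4. Serpina1a, with no H3K4me3 list, was not compared. Most of these genes had no region in most lists, which raises their counts. Rbp4, Foxa1 and Gata4 had a region in most lists, so their matches rest mainly on shared regions.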

How the data were processed

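The authors mapped ChIP-seq reads to mm9 with Bowtie2 2.1.0, kept 1 alignment for each read, and called regions in every library separately. Histone domains were called against input with RSEG, and the authors deposited for each a signal (mean read count per bin, scaling to depth not stated) and a score, which is higher for domains of more bins. Summits of Oct4, Sox2 and Nanog came from MACS with a deposited signal, the reads at the summit. The Uhrf1 list holds 10 kb windows without values. Read totals were not used here, so depth was not taken into account.

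Regions were checked against NCBIM37 (mm9) chromosome lengths, and 0 of 530 chromosome-wise lists exceeded them. Gene starts came from the GENCODE annotation of that build; where 2 records share a symbol (Trf, Dab2), the one with more transcript starts was used. Overlap of at least 1 bp was computed with Python 3.11 and numpy 2.4.6, sequences with pysam 0.24.0 and plots with matplotlib 3.10.9. The overlap code was tested on 4000 simulated windows, with 0 errors. Counts of genes were set beside the share of all 22367 protein-coding genes, without tests.

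The genes, lists and rules were chosen with earlier results of these data known. All 10 genes are named, with at most 4 genes per further list, those whose H3K4me3 state differed between genotypes at the most stages in 1 direction, and the 2 genes most like each member, except 1 gene that is not reported here. Alternatives were other distances, only domains above the median score or summits above the median height of their list, at least 50% of the window covered, and any transcript start.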

Additional observations from a re-analysis of the deposited data

Results flagged for a closer look

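Directions that differed between stages are listed here, and none of these differences was tested, since each is 1 library against 1. The number of the 10 genes with H3K27me3, Uhrf1 KO minus WT, was -3 in mESC and 1 at each of weeks 1, 2 and 3, where the Uhrf1 KO mESC list held 722 domains. Over all genes the share went from 34.9% in WT to 7.57% in Uhrf1 KO in mESC, so a fall there is not particular to these genes. At weeks 1, 2 and 3 it went from 20.5% to 21.1%, from 29.8% to 24.1% and from 33.2% to 19.5%. With only domains above the median score, the differences at weeks 1 and 2 were -1 and 0. Trf carried H3K4me3 in WT only at 2 stages (weeks 2 and 3) and in Uhrf1 KO only at 1 (week 1). Afp carried H3K27me3 in WT only at 1 stage (mESC) and in Uhrf1 KO only at 1 (week 3). Fgb carried H3K27me3 in WT only at 1 stage (mESC) and in Uhrf1 KO only at 1 (week 2).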

How the results depend on the processing

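Of 46 totals recomputed under alternatives, 38 stayed within 1.5 times the reported value and 8 did not. H3K4me3 within 2 kb was found in 25 of 40 pairs of gene and list in WT and 20 of 40 in Uhrf1 KO. These became 14 and 6 when domains at or below the median score of each list were dropped, and 17 and 7 with at least 50% of the window covered. With the start itself covered, an alternative chosen after seeing the data, they were 18 and 8. Leaving out domains that cover another gene's start and not the member's, also chosen after seeing the data, gave 21 and 17. WT stayed above Uhrf1 KO in each of these totals. The share of all genes was likewise higher in WT at every stage, both within 2 kb and over the start itself, so this direction is not particular to these genes. No share of all genes was computed at the other settings. Pairs of gene and factor with a summit rose from 0 to 3 of 30 in WT within 50 kb, and in Uhrf1 KO moved from 5 to 1 within 5 kb and to 2 with only summits above the median height. Uhrf1 windows within 10 kb of the gene body gave 1 gene, Serpina1a, in place of 0. Of 122 counts in single lists, 33 moved by over 1.5 times. Of 58 differences between genotypes at single stages, 31 stayed within 1.5 times, 26 moved and 1 reversed. For H3K4me3, Uhrf1 KO minus WT, the difference of -2 in mESC became 0 with at least 50% of the window covered, with the start itself covered and without domains over another gene's start, and the -2 at week 2 lay between -6 and -1 over the alternatives. The reversal was in H3K27me3 at week 1, which went from 1 to -1 with only domains above the median score. The causes were not tested. The numbers of domains and the bins differed between lists, and depth was not taken into account, so a missing domain is not evidence that the mark was absent.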
